A study of Mus musculus with 16 samples.

Results

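The Nodal and BMP pathway loci comprise 10 genes and the open chromatin regions around them in mouse embryonic stem (ES) cells. A region belonged to a locus if its centre lay in the gene body or within 100 kb of an annotated transcription start site (TSS) of the gene. Of the 81132 regions in the merged list, 198 met this rule. Each gene and its regions are described below in the order ligands, co-receptor, extracellular antagonists, intracellular inhibitors and target genes.

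The regions came from ATAC-seq, in which the Tn5 transposase cuts accessible DNA. The 12 libraries were made from SBROS cells, a knock-in line derived from CGR8 ES cells with reporters for SOX1 and Brachyury. In this line OCT4 is HALO-tagged (heterozygous) and SOX2 is SNAP-tagged (homozygous). The cells were kept in serum with LIF and the inhibitors CHIR99021 and PD184352, and were sorted in G1 phase into 4 populations of 3 replicates each: SHOH (high SOX2, high OCT4), SHOL (high SOX2, low OCT4), SLOH (low SOX2, high OCT4) and SLOL (low SOX2, low OCT4). The list pools all 12 libraries and gives only where each region starts and ends. It holds no level, score or library of origin, so the depth behind a region is unknown and the populations could not be set against each other at these genes. All comparisons are therefore descriptions of position and sequence without a test, and the intervals given for shares cover counting error only.

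Nodal is a TGF-beta family ligand that signals through activin receptors together with the co-receptor encoded by Tdgf1 (Cripto), and phosphorylated SMAD2 and SMAD3 then enter the nucleus with SMAD4 and bind DNA with partners such as FOXH1. Lefty1 and Lefty2 are secreted inhibitors of Nodal and are themselves induced by it, and Smad7 and Skil restrain the pathway inside the cell. BMP4 and BMP7 signal through SMAD1 and SMAD5, and the Id genes are their classical direct targets in ES cells, where ID proteins block neural differentiation. Nodal signalling favours mesendoderm in the early embryo, and its inhibition favours neuroectoderm.

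Sequences of 8 regions are shown first, because the comparison of the Lefty genes draws on 2 of them and the others show where matches lie. Each is listed under the gene whose 100 kb rule it met, which need not be the closest gene. The region listed under Tdgf1 is centred 234 bp from a TSS of Lrrc2, and that under Skil 3894 bp from one of Cldn11. For each gene shown, the region outside promoters with the largest number of different motifs in the 300 bp around its centre was taken, and the widest where regions tied. The 2 Lefty2 sequences were added after their values were seen. All are the GRCm38 plus strand, 5′ to 3′, and capitals mark matches on either strand to the searched letters: AATNCACA for FOXH1, GTCTAGAC for the SMAD palindrome, CAGACA for the SMAD box bound by SMAD3 and SMAD4, GGCGCC for a GC-rich SMAD site, ATGCAAAT for the OCT octamer, CATTGT for SOX factors, and CATTGT followed by ATGC with 0 or 1 base between them for the OCT-SOX composite, which contains the SOX letters. A match describes letters and not binding.
Lefty1, intergenic, 10.1 kb upstream, chr1:180924752-180925051: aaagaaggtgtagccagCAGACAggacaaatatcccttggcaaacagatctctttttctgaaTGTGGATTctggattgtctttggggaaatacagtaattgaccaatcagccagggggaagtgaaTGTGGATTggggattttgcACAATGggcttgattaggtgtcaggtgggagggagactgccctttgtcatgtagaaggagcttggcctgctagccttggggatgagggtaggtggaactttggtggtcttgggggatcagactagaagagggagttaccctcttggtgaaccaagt
Lefty2, intergenic, 4.3 kb upstream, chr1:180888658-180888957: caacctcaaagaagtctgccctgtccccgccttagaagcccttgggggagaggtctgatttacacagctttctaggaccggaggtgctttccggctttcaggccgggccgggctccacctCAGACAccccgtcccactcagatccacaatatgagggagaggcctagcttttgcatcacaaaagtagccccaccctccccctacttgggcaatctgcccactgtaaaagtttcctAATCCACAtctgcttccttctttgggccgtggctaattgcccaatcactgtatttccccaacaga
Lefty2, intergenic, 3.8 kb upstream, chr1:180889180-180889479: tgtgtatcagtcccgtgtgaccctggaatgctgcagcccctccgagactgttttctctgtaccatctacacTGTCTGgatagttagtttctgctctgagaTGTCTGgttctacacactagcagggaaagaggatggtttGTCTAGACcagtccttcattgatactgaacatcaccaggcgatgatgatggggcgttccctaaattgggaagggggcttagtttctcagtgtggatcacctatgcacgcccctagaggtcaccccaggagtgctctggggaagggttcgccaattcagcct
Bmp7, intron of Bmp7, 26.2 kb downstream of the 5′ end, chr2:172913999-172914298: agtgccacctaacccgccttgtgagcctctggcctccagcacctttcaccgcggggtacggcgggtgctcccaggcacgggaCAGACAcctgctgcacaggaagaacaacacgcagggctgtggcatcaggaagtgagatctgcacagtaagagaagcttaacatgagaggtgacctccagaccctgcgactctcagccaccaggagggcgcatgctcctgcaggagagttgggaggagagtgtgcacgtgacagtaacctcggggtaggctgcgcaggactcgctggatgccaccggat
Tdgf1, intron of Lrrc2, 7.9 kb upstream, chr9:110953883-110954182: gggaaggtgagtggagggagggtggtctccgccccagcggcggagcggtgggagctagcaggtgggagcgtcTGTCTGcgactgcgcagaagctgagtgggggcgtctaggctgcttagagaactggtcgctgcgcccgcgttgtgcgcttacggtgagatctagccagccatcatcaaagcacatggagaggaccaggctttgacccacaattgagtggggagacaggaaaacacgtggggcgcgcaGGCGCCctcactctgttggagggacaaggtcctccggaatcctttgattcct
Skil, intergenic, 51 kb downstream of the 5′ end, chr3:31145876-31146175: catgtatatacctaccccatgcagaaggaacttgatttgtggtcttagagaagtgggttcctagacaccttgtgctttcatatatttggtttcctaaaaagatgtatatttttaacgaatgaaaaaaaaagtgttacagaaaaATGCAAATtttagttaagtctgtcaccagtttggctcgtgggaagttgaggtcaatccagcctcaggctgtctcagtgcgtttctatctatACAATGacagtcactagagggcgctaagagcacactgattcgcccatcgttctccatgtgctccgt
Id1, intergenic, 5.6 kb downstream of the 5′ end, chr2:152741678-152741977: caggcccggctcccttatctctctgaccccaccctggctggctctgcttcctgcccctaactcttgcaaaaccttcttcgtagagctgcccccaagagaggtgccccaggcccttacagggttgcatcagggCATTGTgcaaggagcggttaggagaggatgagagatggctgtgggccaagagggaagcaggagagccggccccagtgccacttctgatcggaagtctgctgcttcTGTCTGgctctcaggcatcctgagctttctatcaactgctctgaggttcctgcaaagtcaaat
Id3, intergenic, 3 kb upstream, chr4:136140382-136140681: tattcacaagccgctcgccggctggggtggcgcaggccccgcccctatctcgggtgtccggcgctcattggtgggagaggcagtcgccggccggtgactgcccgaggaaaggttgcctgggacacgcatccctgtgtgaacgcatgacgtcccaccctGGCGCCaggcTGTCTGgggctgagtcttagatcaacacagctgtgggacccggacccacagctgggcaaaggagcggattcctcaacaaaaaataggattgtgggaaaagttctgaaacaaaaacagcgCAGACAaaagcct

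The Lefty1 sequence, which lies in the windows of both Lefty genes, held 4 matches of 3 kinds. Its FOXH1 matches were at bases 63 to 70 and 126 to 133, a SMAD box was at bases 18 to 23 and a SOX match was at bases 145 to 150. The Lefty2 sequence at 4.3 kb held a FOXH1 match at bases 236 to 243, and that at 3.8 kb held the SMAD palindrome at bases 140 to 147. The region at 3.8 kb is only 140 bp wide (chr1:180889261-180889400), so its printed sequence passes both ends of the region. The SMAD box at bases 72 to 77 of that sequence lies outside the region. At Skil the octamer was at bases 144 to 151. The Tdgf1, Bmp7, Id1 and Id3 sequences held only SMAD boxes, GC-rich SMAD sites or SOX letters.

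The loci were rich in regions compared with an average gene. The median over the 10 genes was 22.5 regions per window, against 11 (quartiles 6 and 17) over 21938 protein-coding genes counted by the same rule. Smad7 had 29 regions, Tdgf1, Lefty2 and Id1 had 28 each, Lefty1 had 25, Nodal 20, Bmp7 18, and Bmp4 and Id3 17 each. Skil, with 10 regions, was the single gene of the 10 below the median of protein-coding genes, which 49.1% of these genes exceeded. Outside promoters the medians were 17 and 7, and all 10 genes lay above the protein-coding median, as did 48.8% of protein-coding genes. Among the 13467 protein-coding genes with a region over a transcript start the median was 14. Window length differed little, and per 100 kb of window the medians were 11.2 and 5 regions.

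**Figure D1:**
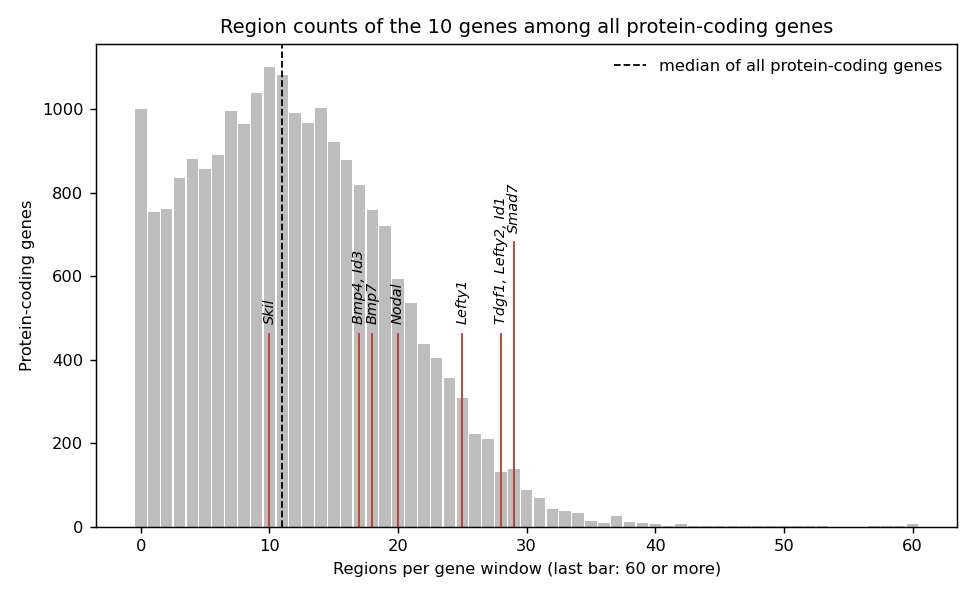
Number of regions in the window of each gene (x axis) and number of protein-coding genes with that count (grey bars, y axis), with red lines at the 10 named genes and a dashed line at the protein-coding median of 11. Smad7, Tdgf1, Lefty2 and Id1 lie in the upper tail at 28 and 29 regions, and Skil lies below the median at 10.

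A region in a window need not belong to the gene that defines it. The 10 windows held 220 pairs of gene and region, and 22 regions counted for both Lefty genes. Of the 198 regions, 86 (43.4%) had one of the 10 genes as the closest protein-coding gene. All 29 regions of the Smad7 window were closest to Smad7 among protein-coding genes, as were 12 of 17 at Bmp4 and 12 of 18 at Bmp7. At Id1, Id3 and Tdgf1 the number was 6 each, at Nodal and Lefty2 5, at Skil 3 and at Lefty1 2. By distance to the gene's own closest TSS, 16 pairs lay under 1 kb, 34 from 1 to 10 kb, 86 from 10 to 50 kb and 84 beyond. Bmp4 had 1 region beyond 50 kb, and the other genes had from 3 (Skil) to 14 (Lefty2). Within 10 kb and outside promoters, Tdgf1 and Id1 had 6 regions each, more than at 98.1% of protein-coding genes. Lefty2 and Bmp4 had 5 each (96.2%), Id3 had 4 (92.3%) and Nodal had 3 (84.3%). Smad7, Skil and Bmp7 had 2 each (69%), and Lefty1 had 0. The class of a region went by its centre, so the regions over the 5′ ends of Id1 and Skil count here as outside promoters. The number of regions followed the width of the window, with 128 regions within 50 kb of a TSS and 302 within 200 kb. Assigned to the closest protein-coding TSS at any distance, the median was 6 regions for the 10 genes and 2 for all protein-coding genes.

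**Figure D2:**
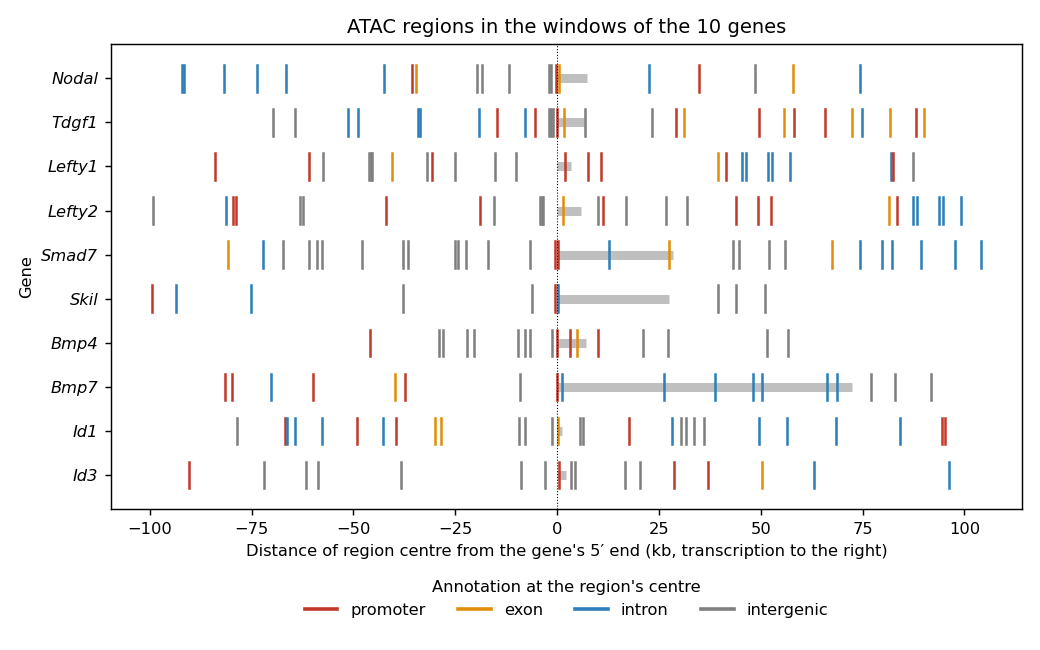
Each tick is the centre of a region, placed by its distance in kb from the 5′ end of the gene named on the y axis with transcription to the right, and coloured by the annotation at the centre. Grey bars are the gene bodies. Bmp4 has ticks at 51.6 and 56.7 kb, of which only the latter is beyond 50 kb from a TSS. Bmp7 has 7 regions inside its body, and the Skil window has long stretches without a region.

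Gene starts were covered at some of the genes and bare at others. Over all protein-coding genes, 52.5% had a region over the 5′ end of the gene, 61.4% over the start of any annotated transcript and 59.3% over the start of a protein-coding transcript. Of the 10 genes, 5 had their 5′ end covered, namely Tdgf1, Skil, Bmp4, Bmp7 and Id1, and the same count held for protein-coding transcript starts. With transcripts of any type the count was 8. Nodal and Smad7 had none covered, although a region began 22 bp from the 5′ end of Smad7 and one ended 151 bp from that of Nodal. At Id3 the gap was 82 bp, at Lefty2 1144 bp and at Lefty1 1700 bp. In the 250 bp to either side of each 5′ end, all 426 stretches of 75 bases, the read length, occurred exactly once in the genome for 9 of the genes, and 425 of 426 did for Tdgf1. These stretches do not span the gaps at Lefty1 and Lefty2, and the part of read placement in the bare starts was not tested.

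By the annotation at the centre, 44 of the 198 regions (22.2%, 95% Wilson interval 17 to 28.5) lay in a promoter, taken as the 1000 bp before a TSS and the first 100 bp after it. The share over all regions was 21%. With 5 kb to both sides counted as promoter the shares were 56.06% (49.1 to 62.8) and 45.7%, where the loci were themselves drawn around TSSs. A further 20 (10.1%) were exonic, 52 (26.3%, 20.6 to 32.8) intronic and 82 (41.4%, 34.8 to 48.4) intergenic, against 8.76%, 35.1% and 35.2% over all regions. Introns thus held a smaller share at the loci than in the whole list. The median width was 358.5 bp at the loci and 355 bp overall. Sequence annotated as repeat made up most of 9 of the 198 regions (4.55%) but of 13.7% of all regions, and the median GC content was 55% against 51.9%.

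At Nodal (chr10:61417972-61425338, plus strand), 20 regions lay in the window and 4 lay within 10 kb. A narrow region of 147 bp was centred 224 bp upstream of the 5′ end (chr10:61417675-61417821), and one of 527 bp was centred 502 bp downstream and ran from exon 1 into intron 1 (chr10:61418211-61418737). The latter was the closest region outside promoters. Upstream, regions of 725 and 156 bp were centred at 1.9 and 1.4 kb, followed by a single region at 11.8 kb and a pair at 18.4 and 19.6 kb. No region was centred in the rest of the gene body. The window also took in promoter regions of Pald1 and Eif4ebp2, and its widest region, of 981 bp, was exonic in Lrrc20 57.9 kb away. The one FOXH1 match in a Nodal region lay outside the central 300 bp, in the intron of Eif4ebp2 22.5 kb downstream of the Nodal 5′ end.

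Bmp4 (chr14:46383520-46390669, minus strand) had regions over its annotated 5′ end (523 bp, centred 40 bp downstream) and over an internal promoter 3.2 kb downstream (324 bp). The closest region outside promoters, of 461 bp, was centred 1.2 kb upstream, and 3 more lay between 6.6 and 9.5 kb upstream. Within 10 kb of a TSS there were 8 regions, more than at 98.1% of protein-coding genes. The widest, of 626 bp, was intergenic and 21 kb downstream of the 5′ end. An intergenic region of 554 bp, 28 kb upstream, held a FOXH1 match. The promoter of one other protein-coding gene, Gm15217, held a region in the window.

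Bmp7 (chr2:172868012-172940321, minus strand), a gene of 72310 bp, was covered at the 5′ end by a region of 823 bp centred 78 bp upstream. An intronic region of 712 bp was centred 1.2 kb downstream, and intronic regions continued at 26.2, 38.9, 48.2, 50.3, 66.3 and 68.7 kb, the last of 970 bp being the widest of the locus. The 18 regions in the Bmp7 window were more than at 76.3% of protein-coding genes. Counting by closest protein-coding TSS without a distance limit gave Bmp7 23 regions, more than 98.6% of protein-coding genes. Upstream lay promoter regions of Spo11, Rae1 and Rbm38. A FOXH1 match occurred in a region of the Rbm38 promoter, outside its central 300 bp, and no Bmp7 region matched the SMAD palindrome, the octamer or the composite.

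The co-receptor gene Tdgf1 (chr9:110939603-110946158, minus strand) had a compact group of 4 regions in 2420 bp over and upstream of its 5′ end. The first, of 480 bp, was centred 41 bp upstream of the TSS, and the others, of 232, 155 and 447 bp, at 1.1, 1.5 and 2 kb. The most distant of these held an octamer outside the central 300 bp. An exonic region of 166 bp lay 373 bp from an internal TSS. Tdgf1 had 8 regions within 10 kb of a TSS, 6 of them outside promoters, which exceeded 98.1% of protein-coding genes in both counts. The 8 include an Lrrc2 promoter region 5.4 kb upstream. The 6 include the intronic region 7.9 kb upstream, which is centred 234 bp from a TSS of Lrrc2. The neighbouring gene Lrrc2 contributed 2 promoter regions, including the widest of 926 bp at 14.7 kb, and promoters of Prss50, Als2cl, Tmie and Fam240a also held regions.

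Lefty2 (chr1:180893108-180899103) and Lefty1 (chr1:180935022-180938400) lie on the plus strand in the same orientation with their 5′ ends 41914 bp apart. Of the regions in their windows 22 were shared, 3 counted for Lefty1 alone and 6 for Lefty2 alone. Neither gene had a region at the start of its protein-coding transcript. Each had instead a single intragenic region that ran from the end of exon 2 through intron 2 into exon 3, or just past it at Lefty2 (chr1:180894252-180894879, 628 bp, and chr1:180936722-180937182, 461 bp, at Lefty1). A retained-intron transcript is annotated as starting inside each, and only through this transcript did the Lefty1 region fall in the promoter class and did both genes count as having a covered transcript start. These 2 regions aligned over 464 columns with 87.7% identity, and the longest identical run was 161 bp, longer than a 75 base read. The authors kept uniquely mapped reads, and the part of such identical stretches in the shape of these regions was not tested. The 5′ ends, where no region was found, aligned over 414 columns with 77.8% identity and a longest identical run of 27 bp.

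Upstream of the coding part the genes differed. Lefty2 had 3 regions in 1249 bp, centred 4.3, 3.8 and 3.6 kb upstream and 768, 140 and 247 bp wide. Lefty1 had no region between its 5′ end and 10.1 kb upstream, where 1 region of 506 bp lay. The Lefty2 region at 4.3 kb and the Lefty1 region at 10.1 kb aligned on opposite strands, over 152 columns with 67.8% identity (chr1:180888817-180888957 and chr1:180924830-180924963). Each of them held 2 FOXH1 matches, spaced 83 bp apart at Lefty2 and 63 bp at Lefty1, and one match of each fell on the same 8 alignment columns. These are the FOXH1 matches at bases 236 to 243 and 126 to 133 of the printed sequences. Another aligned pair lay at Ephx1, where regions of 894 and 313 bp, 42006 bp apart, shared 303 columns with 94.1% identity, one intronic and the other intergenic near the Ephx1 start. No other pair compared scored as high as the inverted one.

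**Figure D3:**
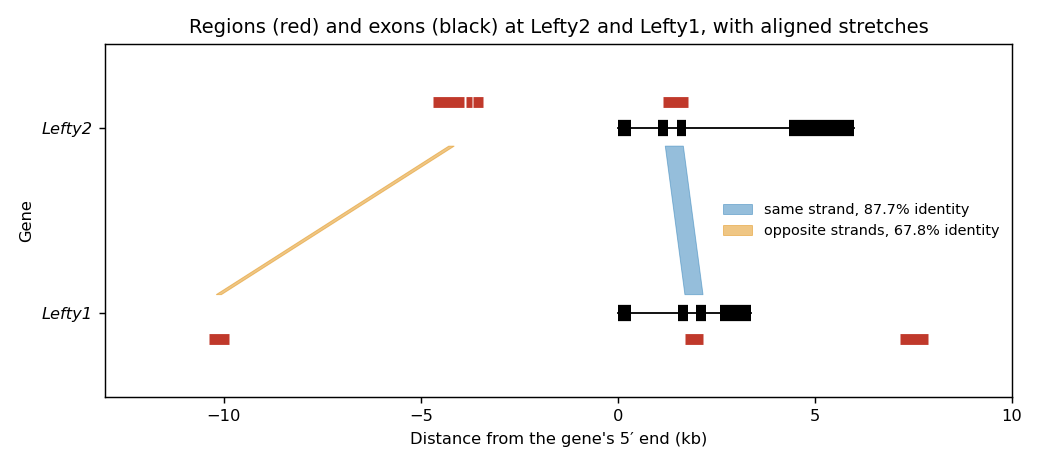
Regions (red) and exons of the protein-coding transcript (black) at Lefty2 (top) and Lefty1 (bottom), placed by distance in kb from each gene's 5′ end. Ribbons join stretches that align, on the same strand over exons 2 and 3 with 87.7% identity and on opposite strands upstream with 67.8%.

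Other promoters in the Lefty windows that held regions included those of Sde2 and Tmem63a for both genes, Ephx1 for Lefty1, and H3f3a for Lefty2. The widest regions were a Sde2 promoter region of 906 bp for Lefty1 and an intergenic one of 975 bp, 99.1 kb upstream, for Lefty2. The closest region outside promoters was the intragenic one at Lefty2 and that at 10.1 kb at Lefty1.

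The intracellular inhibitors were at opposite ends of the range. Smad7 (chr18:75367529-75395935, plus strand), which blocks type I receptors, had 29 regions, 27 of them outside promoters, more than at 99.2% of protein-coding genes. A region of 952 bp was centred 607 bp upstream of the 5′ end and one of 207 bp 125 bp downstream, and neither covered the 5′ end. Only 2 regions lay between 1 and 10 kb, 12 lay from 10 to 50 kb and 13 beyond. The closest region outside promoters was intronic, 5407 bp from an internal TSS, and the widest, of 1042 bp, was intronic in the neighbouring gene Ctif. No other protein-coding promoter held a region in the window. The window had a FOXH1 match 47.8 kb upstream, an octamer 37.7 kb upstream and a SMAD palindrome 56 kb downstream of the 5′ end, and the region at 607 bp held a SMAD palindrome outside its central 300 bp. Assigned by closest protein-coding TSS at any distance, Smad7 had 35 regions.

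Skil (chr3:31095058-31122577, plus strand), which encodes the SMAD corepressor SnoN, had 10 regions, more than 40.9% of protein-coding genes. A region of 770 bp covered the 5′ end, was centred 304 bp downstream in intron and was the closest outside promoters, and one of 166 bp lay 412 bp upstream. The remaining own-side region within 10 kb was one of 140 bp, 6.1 kb upstream. The widest, of 1076 bp, was intergenic and 37.9 kb upstream. Intergenic regions toward Cldn11 held a FOXH1 match (43.8 kb downstream of the 5′ end) and an octamer (51 kb). Prkci was the other gene with a promoter region.

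Of the targets, Id1 had 28 regions and Id3 17. Id1 (chr2:152736251-152737410, plus strand) is 1160 bp long, and a region of 706 bp centred 210 bp downstream covered its 5′ end. A region of 400 bp lay 1.2 kb upstream, and pairs of regions followed at 7.9 and 9.2 kb upstream and at 5.6 and 6.4 kb downstream of the 5′ end. All 6 regions within 10 kb, including the one over the 5′ end, had their centre outside the promoter class, a count above that of 98.1% of protein-coding genes. A SMAD palindrome lay in an exon of H13 29.9 kb upstream, and a FOXH1 match in an intergenic region 33.6 kb downstream. Promoter regions of H13, Mcts2, Cox4i2 and Bcl2l1 were in the window, the widest being 828 bp at Bcl2l1. At Id3 (chr4:136143497-136145755, plus strand) a region of 579 bp began 82 bp downstream of the 5′ end, over an internal TSS, and further regions lay 8.9 and 3 kb upstream and 3.5 and 4.4 kb downstream of the 5′ end. That at 3.5 kb, of 270 bp, was the closest to any TSS of Id3 outside promoters, 2045 bp from an internal one. Rpl11, with the widest region of 1085 bp, and E2f2 were the other promoters, and a FOXH1 match lay in an Asap3 intron outside the central 300 bp.

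Motif shares at the loci were mostly those of the whole list. Matches were counted in the 300 bp around each centre, which can pass the ends of a narrow region. A FOXH1 match was found there in 6 of 198 regions (3.03%, 95% Wilson interval 1.4 to 6.45) against 4.04% of all 81132 regions. The SMAD box occurred in 52 (26.3%, 20.6 to 32.8) against 24.9%, and the GC-rich SMAD site in 16 (8.08%, 5.04 to 12.7) against 9.64%. SOX letters occurred in 26 (13.1%, 9.12 to 18.5) against 13.7%, and the octamer in 2 (1.01%, 0.28 to 3.61) against 2.15%. The OCT-SOX composite was found in 0 of 198 (Wilson interval up to 1.9%; 1.52% would be 3 regions) and in 0.134% of all regions. For each of these 6 motifs the interval included the value of the whole list. This was also so with whole regions searched, where FOXH1 matches occurred in 9 (4.55%) against 5.22% of all regions, the SMAD box in 65 (32.8%) against 31.2%, the GC-rich site in 23 (11.6%) against 13.6%, SOX letters in 33 (16.7%) against 17.1%, the octamer in 3 (1.52%) against 2.66% and the composite in 0 against 0.177%.

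The SMAD palindrome was the exception in value. In the central 300 bp it occurred in 3 of 198 regions (1.52%, 0.52 to 4.36), at Lefty2, Smad7 and Id1, against 0.261% of all regions (212 of 81132). The share was 5.8 times that of the list, on a count of 3. Among all regions weighted to the GC content of the loci the share was 0.26%, and in flanks 5 kb from the 198 regions it was 0 of 198. In whole regions the palindrome occurred in 4 of 198 (2.02%, 0.79 to 5.08), the fourth also at Smad7, against 0.388% of all regions. FOXH1 matches in the central 300 bp occurred in 0 of 44 promoter regions (Wilson interval up to 8.03%, against 1.74% of all promoter regions) and in 6 of the 154 others (3.9%, against 4.65% of all regions outside promoters). GC-rich SMAD sites in the same 300 bp occurred in 4 of 44 promoter regions (9.09%, 3.59 to 21.2) against 22% of all promoter regions, and 12 of 154 others (7.79%, 4.51 to 13.1) against 6.37%. In the flanks 5 kb away the GC-rich site occurred in 2 of 198 (1.01%), FOXH1 in 11 (5.56%), the SMAD box in 58 (29.3%), the octamer in 4 (2.02%), SOX letters in 27 (13.6%) and the composite in 0. The GC-rich share at the loci was thus 8 times that of their flanks and 0.84 times that of the whole list.

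**Figure D4:**
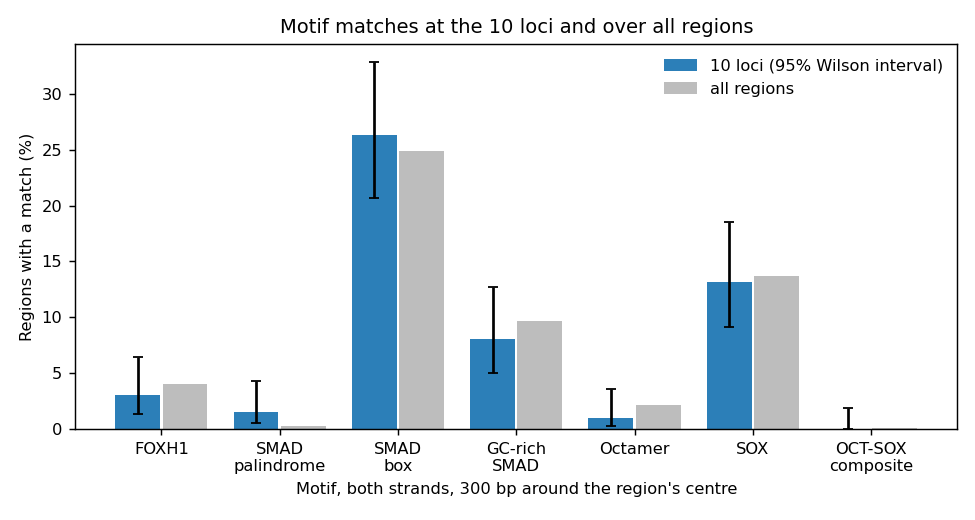
Share of regions with at least 1 match in the 300 bp around the centre (y axis, %) for each motif (x axis), at the 198 regions of the loci (blue, bars with 95% Wilson intervals) and over all 81132 regions (grey). The interval lies above the grey bar for the SMAD palindrome (1.52% against 0.261%), on a count of 3, and includes it for the other 6 motifs.

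By gene, the central 300 bp held a SMAD box at 11 of 29 regions of Smad7, 9 of 28 of Id1 and of Lefty2, 9 of 25 of Lefty1, 6 of 20 of Nodal, 4 of 28 of Tdgf1, 4 of 18 of Bmp7, 4 of 17 of Id3, 3 of 10 of Skil and 2 of 17 of Bmp4. Searched whole, 14 regions held one at Id1, 12 at Smad7, 9 at Bmp7, 8 at each Lefty gene, 7 at Nodal, 6 at Id3, 4 at Tdgf1 and at Skil and 1 at Bmp4. The order of the genes thus depended on the stretch searched, with Bmp4 lowest by count in both. Over all regions, the share with a SMAD box was 24.9% in the central 300 bp and 31.2% in whole regions. The counts by gene are small, no difference between genes was tested, and the regions of the Lefty genes are largely the same ones.

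The 10 genes were set beside a list of 56 genes of the Nodal, activin, TGF-beta and BMP pathways. The median over the 56 was 14 regions, and 34 lay above the protein-coding median of 11, which 49.1% of all protein-coding genes exceeded. The other 46 genes had a median of 13, with 25 above 11, near that share. A region covered the 5′ end of 37 of the 56 genes, against 52.5% of all protein-coding genes, and any transcript start of 44, against 61.4%. Among 14 ligands the median was 17.5, from 4 at Inhba, the activin A subunit gene, to 25 at Gdf3, a Nodal-related ligand of pluripotent cells. The 12 receptors and co-receptors had a median of 13, from 3 at Acvr1c to 29 at Acvr1b, both of them type I receptors for Nodal. All 7 SMADs and nuclear partners had a covered 5′ end, against the same 52.5%, with a median of 14, from 7 at Smad1 to 21 at Foxh1.

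Of the 8 extracellular antagonists, Lefty2 had the most regions (28) and Cer1, a secreted inhibitor of Nodal and BMPs, the fewest (3), and the median was 13. The 6 intracellular inhibitors ranged from 10 at Skil to 29 at Smad7 with a median of 15.5. A region covered any transcript start of 3 of these 6, against 61.4% of all protein-coding genes. The proprotein convertases, which cleave the Nodal precursor, had 14 regions at Pcsk6 and 11 at Furin. Of the 7 targets, Id1 had the most (28) and Id2 the fewest (7). All 7 targets had more than 1 region outside promoters within 10 kb, the median of protein-coding genes, and so did 33 of the 56 genes and 31% of all protein-coding genes.

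**Figure D5:**
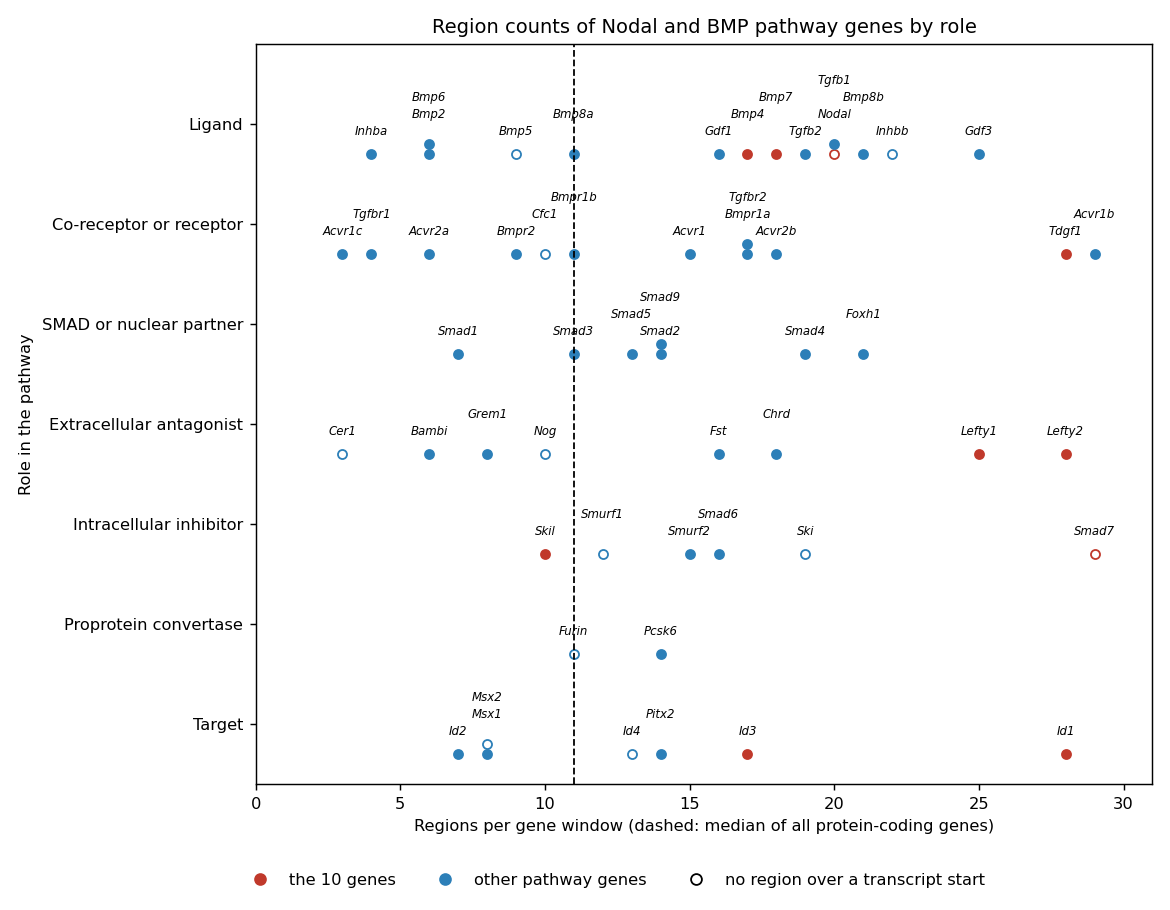
Regions per gene window (x axis) for 56 pathway genes arranged by role (y axis), with the 10 genes in red, the other 46 in blue and the protein-coding median of 11 dashed. Open circles mark genes without a region over a transcript start, among them Nodal and Smad7, and all 7 SMADs and nuclear partners are filled.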

How the data were processed

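ATAC-seq libraries (12) were aligned by the authors to mm10 with STAR (2.5.3a), uniquely mapped reads were kept, and duplicates were removed with Picard. Peaks were called per library with MACS2 (2.1.1.20160309), merged over all libraries, and dropped where they overlapped peaks of a ChIP-seq input of asynchronous ES cells from another series. No shift for Tn5 is named. The deposited list holds positions alone, so no level, depth or replicate error is given. The 4 ChIP-seq samples were not analysed here.

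Regions, none of which passed a chromosome end of GRCm38, were placed on GENCODE M21 with Python (3.11.15), numpy (2.4.6), pysam (0.24.0) and scipy (1.17.1), and Lefty regions were aligned with Biopython (1.88; match 2, mismatch -3, gap opening -5, extension -2; regions over 50% repeat left out). Windows for printed sequence that held over 30 bases of UTR were passed over. Counting and motif search were tested on simulated data. Named genes were the 10 members, other protein-coding genes with a promoter region in a window, genes that hold or adjoin a named region (for its position only), and the extremes of each role, and 1 such neighbour and 1 sequence are not reported here. Members and lists were chosen with earlier results of these data known. Alternatives changed the window, the assignment, the region list, the promoter and the reference.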

Additional observations from a re-analysis of the deposited data

How the results depend on the processing

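No paired analysis was possible because the pooled list carries no replicate and no result comes from a test. The union of 198 regions was within 1.5 times of its value when membership went by overlap, by the gene's 5′ end alone, with regions up to 500 bp apart joined, or without regions under 200 bp, but became 128 within 50 kb and 302 within 200 kb. The median per gene of 22.5 became 37 within 200 kb, 4 when a region went to the closest TSS of any gene and 6 by the closest protein-coding TSS. The ratio of the median to that of all protein-coding genes, 2.05, was 2.43 outside promoters and 2.24 per 100 kb of window; it was 2.81 with all annotated genes as reference. Chosen after seeing the data were protein-coding genes with a region over a transcript start as reference (1.61) and the closest protein-coding TSS (3). The promoter share became 56.06% with promoters of 5 kb to both sides. In whole regions the SMAD box share became 32.83%, just above its interval, where all regions had 31.2%. The ratio of the GC-rich SMAD share to the reference, 0.84 against all regions, became 8 against flanks 5 kb away (the cause was not tested). No ratio could be formed for the SMAD palindrome and the OCT-SOX composite against flanks, which held no match. The reference weighted by GC content, chosen after seeing the data, moved no motif ratio beyond its interval. With 198 regions, shares near 1% rest on 2 or 3 regions.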
